A study of Mus musculus with 28 samples.

Results

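The cyclin-dependent kinase inhibitors are the 7 genes Cdkn1a, Cdkn1b, Cdkn1c, Cdkn2a, Cdkn2b, Cdkn2c and Cdkn2d, taken by name from the 53801 genes of the bulk count tables. They were followed in a mouse model of premature aging through bulk RNA-seq, single-cell RNA-seq and ATAC-seq, the last of which marks open chromatin by transposase insertion. Zmpste24 (Z24), the protease that matures prelamin A, carries loxP sites (Z24 fl) and is removed by Prx1-Cre, which is active in limb mesenchyme, so other lineages of the bone keep the gene. Bulk libraries came from 20-week-old mice, from sorted cells that were Ai9+ and CD45-Ter119-CD31-, about 1000 for each RNA library and more for each ATAC library. The growth plate cells were further CD73+ (gpSSPCs) and the periosteal cells Sca1+ (pSSPCs). Each population had 3 control and 3 conditional knockout (CKO) libraries for RNA and 3 of each for ATAC. The titles separate control from CKO, whereas the genotype label of every bulk library reads PrxCre with Z24 fl/fl, and the study's methods name littermates as controls without giving their genotype for these libraries. Single-cell libraries came from bone marrow and bone, 1 per condition. At 16 weeks a control (PrxCre, Z24 fl/+) and a CKO (PrxCre, Z24 fl/fl) were profiled, and at 8 weeks an Osx-Cre and a Prx1-Cre library were profiled. Both carry the label Z24 fl/fl, whereas the study gives these mice as Cre with the Ai9 reporter alone.

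These proteins stop or slow the cell cycle. The Cip/Kip proteins p21 (Cdkn1a), p27 (Cdkn1b) and p57 (Cdkn1c) bind cyclin-CDK complexes broadly, and the Ink4 proteins p16Ink4a (Cdkn2a), p15Ink4b (Cdkn2b), p18Ink4c (Cdkn2c) and p19Ink4d (Cdkn2d) bind CDK4 and CDK6. Cdkn2a has a further start whose transcript encodes p19Arf, which stabilizes p53, and p53 in turn activates Cdkn1a. Cdkn1a, Cdkn2a and Cdkn2b are widely read as markers of cell senescence, and Cdkn1c is known for its part in the exit of growth plate chondrocytes from the cell cycle. The study itself read p16 and p21 as markers of senescence and singled out Cdkn1a in these libraries, so these genes are not an independent choice.

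On mm10 (GRCm38), in the GENCODE vM21 annotation, the genes lie on 5 chromosomes. Cdkn1a spans chr17:29090976-29100727 and Cdkn1b chr6:134920401-134925513 on the plus strand. On the minus strand, Cdkn1c spans chr7:143458339-143461050 and Cdkn2d chr9:21288410-21291407. Chromosome 4 holds the rest, also on the minus strand, with Cdkn2a at chr4:89274471-89294653, Cdkn2b beside it at chr4:89306299-89311039 and Cdkn2c at chr4:109660876-109667189.

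Cdkn2a has a pair of annotated starts and Cdkn1a has several, and the ATAC-seq data separate them where RNA counts per gene cannot. Windows of 300 bases (250 before and 50 after the start) are shown for 4 starts, the upstream and downstream ones that RefSeq gives for Cdkn1a and both of Cdkn2a, because peaks covered 3 of them and missed the other. They are RefSeq sequences of GRCm38.p6, the build of the peak files, read 5′ to 3′ on the gene's strand, with capitals marking each GC box (GGGCGG, sought on both strands), the motif of Sp1.
Cdkn1a, upstream start, chr17:29090729-29091028, plus strand: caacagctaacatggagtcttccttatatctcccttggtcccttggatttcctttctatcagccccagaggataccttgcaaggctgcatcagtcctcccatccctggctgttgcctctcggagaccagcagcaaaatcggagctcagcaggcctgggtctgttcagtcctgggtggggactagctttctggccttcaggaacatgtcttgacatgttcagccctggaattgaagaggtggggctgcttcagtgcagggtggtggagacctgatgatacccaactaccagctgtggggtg
Cdkn1a, downstream start, chr17:29093519-29093818, plus strand: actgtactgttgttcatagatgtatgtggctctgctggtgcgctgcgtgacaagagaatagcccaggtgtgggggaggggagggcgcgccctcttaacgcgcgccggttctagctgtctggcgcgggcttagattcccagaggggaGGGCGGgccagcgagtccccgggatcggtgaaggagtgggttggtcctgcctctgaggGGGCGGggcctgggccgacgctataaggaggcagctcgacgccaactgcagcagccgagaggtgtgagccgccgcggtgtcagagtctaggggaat
Cdkn2a, p16Ink4a start, chr4:89282143-89282442, minus strand: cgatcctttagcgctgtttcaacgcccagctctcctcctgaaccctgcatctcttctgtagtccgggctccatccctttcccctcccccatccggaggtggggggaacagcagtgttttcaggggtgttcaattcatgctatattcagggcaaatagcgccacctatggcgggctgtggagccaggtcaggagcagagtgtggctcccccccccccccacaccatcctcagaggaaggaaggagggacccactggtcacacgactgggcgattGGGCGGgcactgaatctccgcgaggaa
Cdkn2a, p19Arf start, chr4:89294570-89294869, minus strand: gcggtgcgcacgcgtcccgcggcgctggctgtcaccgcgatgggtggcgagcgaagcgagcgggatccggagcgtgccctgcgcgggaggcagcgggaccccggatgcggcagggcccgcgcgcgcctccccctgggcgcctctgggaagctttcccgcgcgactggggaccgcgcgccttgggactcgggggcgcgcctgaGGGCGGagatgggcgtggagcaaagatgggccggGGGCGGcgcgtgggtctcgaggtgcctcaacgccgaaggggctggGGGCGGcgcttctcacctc
The upstream Cdkn1a window held 0 GC boxes and lay outside every peak, and the downstream window held 2 and lay inside a peak in all 12 ATAC libraries. The p16Ink4a window held 1 GC box and the p19Arf window held 3. Of the 32817 RefSeq windows of this length, 35.6% held at least 1 GC box, so its presence is common. Windows were found for 6 of the 7 genes, 9 windows in all. The Cdkn2d window held 5 GC boxes, Cdkn1b and Cdkn2b held 1 each, and the Cdkn2c pair held 0 and 4. No window of these genes held TATAAA, which stands in 13.6% of all windows, or TGANTCA, the AP-1 site, which stands in 7.81%. CCAAT, found in 37.4% of all windows, stood 3 times in Cdkn1b and 1 time each in the p16Ink4a, Cdkn2d and downstream Cdkn2c windows. A match describes the letters only.

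Replicates 2 and 3 of the bulk RNA libraries may not be separate samples. Over genes of 5 to 99 counts, replicates 2 and 3 of every group differed by less than sampling noise, where the chi-square statistic divided by its degrees of freedom was 0.81 to 0.97, against 10.2 to 14.2 for pairs with replicate 1. Among genes with 20 counts or more, that quotient reached 1.59 to 1.92, which exceeds sampling noise, while pairs with replicate 1 gave 53.2 to 71.4. Replicates 2 and 3 were counted as 1 sample by summing their counts, so each group held 2 samples and each population 2 sample pairs. Replicate 1 stood apart in every group, with 12082 to 12981 genes detected against 15776 to 17207 in replicates 2 and 3. Library totals ran from 1333260 to 5315709 counts. Nothing in the labels states that the remaining samples came from separate animals, so p-values measure the spread between these samples, and fewer cells of a type and less RNA per cell cannot be told apart in bulk. The targeted gene followed the titles. Zmpste24 was lower in CKO in 4 of 4 sample pairs. Replicates 1, 2 and 3 of Zmpste24 stood at 4.71, 15.1 and 16.2 CPM in control gpSSPCs against 1.14, 8.32 and 7.67 CPM in CKO, and at 0.81, 15.9 and 16.6 CPM in control pSSPCs against 0, 7.75 and 7.24 CPM in CKO. The fitted change of Zmpste24 was -1.13 (SE 1.42) in gpSSPCs and -1.17 (SE 2.17) in pSSPCs on the log2 scale, within the spread between samples.

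Cdkn1a was the most abundant of the 7 inhibitors per exon length in every bulk group, and Cdkn2a the least. Cdkn1a stood at 250 to 367 CPM per kb of exon, while Cdkn1c stood at 50.5 to 104, Cdkn2d at 31.8 to 67.0, Cdkn1b at 31.7 to 40.4, Cdkn2c at 9.64 to 15.4, Cdkn2b at 1.19 to 4.69 and Cdkn2a at 0.092 to 0.58. The gap from Cdkn1a to the next gene exceeded the spread within each group. Among the middle genes the order was less firm. Without division by exon length, Cdkn1b and Cdkn1c stood at 151 and 212 CPM in control gpSSPCs and 144 and 129 CPM in CKO. In pSSPCs they stood at 184 and 133 CPM in control and 150 and 103 CPM in CKO. In CKO pSSPCs Cdkn1c stood at 50.5 ± 17.7 (SD, n = 2 samples), Cdkn2d at 37.8 ± 13.5 and Cdkn1b at 33.0 ± 26.2 CPM per kb, which do not differ beyond their spread. Cdkn2b and Cdkn2a stood below the other members in all 4 groups. These values rest on 42531 counts of Cdkn1a over 12 libraries, 5800 of Cdkn1c, 4067 of Cdkn1b, 2803 of Cdkn2d, 1101 of Cdkn2c, 214 of Cdkn2b and 18 of Cdkn2a.

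**Figure D1:**
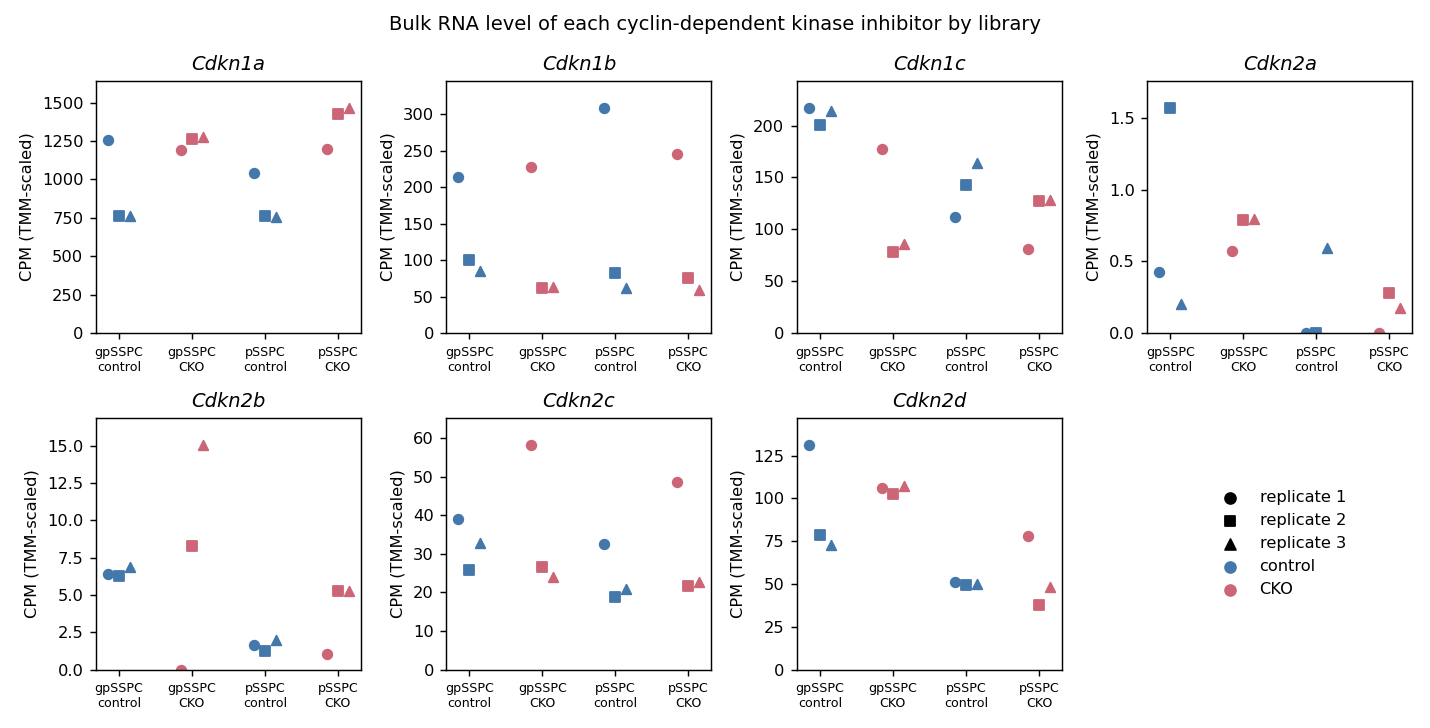
Bulk RNA level of each inhibitor in every library, in counts ppm after TMM scaling (y axis, its own range for each gene, from 0), by population and genotype (x axis), with replicates as marker shapes. The 3 CKO pSSPC libraries sit above the 3 controls for Cdkn1a, the 3 CKO gpSSPC libraries sit below the 3 controls for Cdkn1c, and Cdkn2a stays between 0 and 1.57 CPM.

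The genotype comparison asked whether loss of Zmpste24 moved these genes in each population. Among the Cip/Kip genes, Cdkn1a tended upward and Cdkn1c downward, and neither passed the test across all genes. No gene was called at an adjusted p under 0.05 in edgeR's quasi-likelihood test, 0 of 12041 in gpSSPCs (0.0%) and 0 of 11878 in pSSPCs (0.0%). With a looser rule on the same edgeR p-values, a raw p below 0.05 with a log2 change beyond 0.25 in size, 57 genes passed in gpSSPCs (0.473%) and 142 in pSSPCs (1.20%), none of them among the 7. The study set that rule on DESeq2 p-values with every library as a sample. Run so, it passed 634 genes in gpSSPCs (5.78%), Cdkn1c among them (change -0.85, SE 0.41, unadjusted p = 0.0402, adjusted p = 0.781 in DESeq2), and 1045 in pSSPCs (9.58%), Cdkn1a among them (change 0.64, SE 0.31, unadjusted p = 0.0369, adjusted p = 0.425 in DESeq2). No other member passed, and Cdkn1a in gpSSPCs had an unadjusted p of 0.144 in this DESeq2 fit, which takes replicates 2 and 3 as separate samples. With adjusted p-values, DESeq2 on the summed samples called 1 gene in gpSSPCs and 0 in pSSPCs. Blocking on the replicate number, which was taken to pair the RNA samples, gave 12 called genes in gpSSPCs and 38 in pSSPCs, again none of the 7.

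Cdkn1a encodes p21, the inhibitor that p53 switches on. In pSSPCs it stood at 1040, 764 and 753 CPM in control replicates 1, 2 and 3, and at 1200, 1425 and 1465 CPM in CKO. Every CKO library lay above every control. Over the 2 samples of each group, 11% of the genes tested in pSSPCs have CKO above control, and 23.1% are higher in CKO in both sample pairs. The fitted change was 0.56 (SE 0.45, 95% interval -0.47 to 1.58, edgeR adjusted p = 1.00) on the log2 scale. In gpSSPCs Cdkn1a stood at 1258, 763 and 763 CPM in control and at 1189, 1261 and 1277 CPM in CKO. Here the groups overlapped, because control replicate 1 was as high as the CKO libraries. The ratio of CKO to control was 1.65 with replicates 2 and 3 summed and 0.952 in replicate 1. The fitted change was 0.29 (SE 0.48, 95% interval -0.82 to 1.41). With the replicate block, Cdkn1a had an unadjusted p of 0.0082 and an adjusted p of 0.591 in pSSPCs (change 0.57, SE 0.22), and an unadjusted p of 0.127 in gpSSPCs (edgeR). The difference between the populations in this genotype effect was -0.24 (SE 0.57), gpSSPC minus pSSPC, and 0 of 13173 genes were called for such a difference (0.0%).

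Cdkn1c encodes p57, an imprinted inhibitor with roles in cartilage and other tissues. In gpSSPCs it stood at 217, 200 and 214 CPM in control and at 177, 78.4 and 85.4 CPM in CKO. All CKO libraries lay below all controls. Over the 2 samples of each group, 11.6% of the genes tested in gpSSPCs have CKO below control, and 25.5% are lower in CKO in both sample pairs. In pSSPCs Cdkn1c stood at 112, 143 and 164 CPM in control and at 81.0, 127 and 128 CPM in CKO, and the groups overlapped. Cdkn1c was lower in CKO in 4 of 4 sample pairs over both populations, with ratios of 0.822 and 0.393 in gpSSPCs and 0.721 and 0.810 in pSSPCs. The fitted change was -0.70 (SE 0.52, 95% interval -1.91 to 0.51) in gpSSPCs and -0.35 (SE 0.61) in pSSPCs, with an edgeR adjusted p of 1.00 in both. With the replicate block the change in gpSSPCs was -0.81 (SE 0.29, unadjusted p = 0.0096, adjusted p = 1.00 in edgeR). The genotype effects differed between populations by -0.33 (SE 0.73). Chondrocyte markers were mostly lower in CKO too. In gpSSPCs, of 9 such genes (Col2a1 the most abundant, none at 0), 7 had a negative change. Their summed level there was 43779, 30720 and 31006 CPM in control against 26423, 18451 and 18561 CPM in CKO. In pSSPCs all 9 had a negative change, with a median of -0.19 against -0.71 in gpSSPCs. The part of cell composition in the Cdkn1c difference was not tested. The Cdkn1c locus overlaps Gm44732 on the other strand, and the Cdkn1a locus likewise overlaps AC167363.2. Reads of overlapping genes cannot be told apart without strand.

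Cdkn1b, which encodes p27, a brake held by many quiescent cells, varied more between replicates than between genotypes. It stood at 214, 99.6 and 85.3 CPM in control gpSSPCs and at 228, 61.4 and 63.2 CPM in CKO, and at 309, 82.2 and 61.2 CPM in control pSSPCs and 245, 75.0 and 59.5 CPM in CKO. Replicate 1 was the highest library in all 4 groups. CKO was lower in both pSSPC sample pairs, as for 24.7% of genes. The fitted changes were -0.06 in gpSSPCs and -0.29 in pSSPCs.

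**Figure D2:**
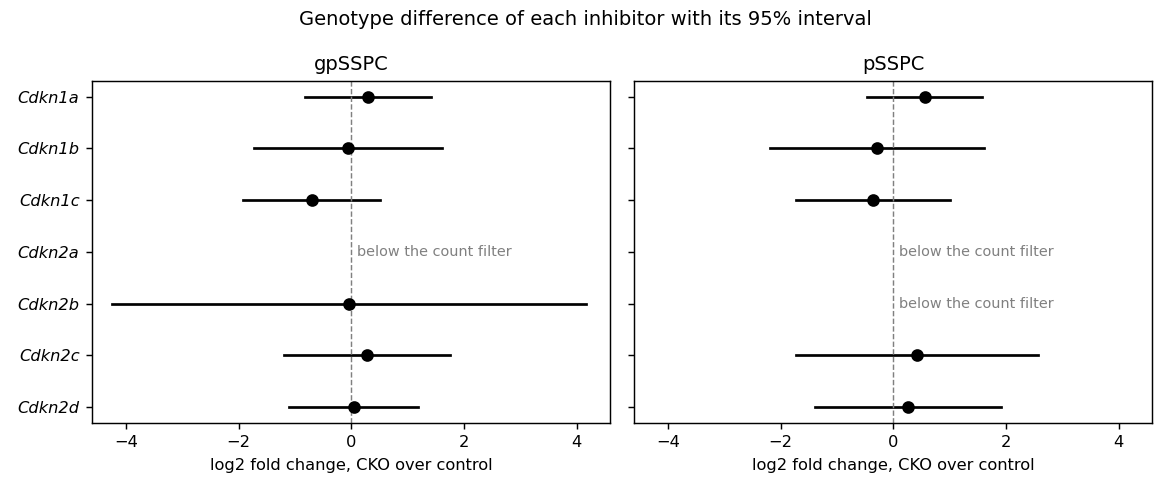
Fitted log2 fold change of CKO over control (x axis) for each inhibitor (y axis) in gpSSPCs (left) and pSSPCs (right), with points for the edgeR estimate and lines for its 95% interval. Every interval includes 0, and Cdkn2b in gpSSPCs has the widest. Cdkn2a in both populations and Cdkn2b in pSSPCs were below the count filter.

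Among the Ink4 genes, Cdkn2a and Cdkn2b gave little to judge. Cdkn2a, whose p16Ink4a product is the common senescence marker, is too low to judge in bulk RNA. It had 1, 5 and 1 counts in control gpSSPCs and 1, 2 and 3 in CKO, and 0, 0 and 3 in control pSSPCs and 0, 1 and 1 in CKO. It had 3 or fewer counts in 11 of 12 libraries, so no fold is given, and a count of 0 allows up to 3 counts, or 0.53 to 2.44 CPM over these libraries. Such floors cover counting error only. Cdkn2b, its neighbour on chromosome 4, is also too low in pSSPCs, with 2, 4 and 10 counts in control and 2, 19 and 30 in CKO. In gpSSPCs it had 15, 20 and 34 counts in control and 0, 21 and 57 in CKO, which gave a change of -0.04 with an SE of 1.81. Its 3 CKO libraries ran from 0 to 57 counts, below and above every control.

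Cdkn2c and Cdkn2d could be measured. Cdkn2c stood at 38.9, 25.8 and 32.8 CPM in control gpSSPCs and at 58.2, 26.5 and 24.1 CPM in CKO, and at 32.6, 18.8 and 20.8 CPM in control pSSPCs and 48.5, 21.6 and 22.8 CPM in CKO. CKO was higher in both pSSPC sample pairs, as for 23.1% of genes, with a fitted change of 0.42, against 0.28 in gpSSPCs. Cdkn2d stood at 131, 78.6 and 73.0 CPM in control gpSSPCs and at 106, 103 and 107 CPM in CKO, and at 51.3, 49.4 and 50.1 CPM in control pSSPCs and 77.9, 37.9 and 48.4 CPM in CKO. Its changes were 0.05 and 0.27. Over the members, 3 had a positive and 3 a negative change of the 6 tested in gpSSPCs (median 0.004), and 3 and 2 of the 5 tested in pSSPCs (median 0.27). The medians over all genes tested were 0.002 and -0.02. Leaving out 1 library turned the signs of Cdkn1b, Cdkn2b and Cdkn2c in gpSSPCs and of Cdkn1b, Cdkn2c and Cdkn2d in pSSPCs.

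Between the populations, Cdkn2d leaned toward the growth plate. Its fitted difference was 0.90 (SE 0.37, edgeR adjusted p = 0.496), gpSSPC over pSSPC on the log2 scale, over genotypes. The lowest gpSSPC library, at 73.0 CPM, lay below the highest pSSPC library, at 77.9 CPM, so the populations overlapped. In this comparison 49 of 13173 genes were called (0.372%), and none of the 6 members tested was among them. The remaining differences of the members ran from -0.21 to 1.44, and the highest was Cdkn2b (counts above), followed by Cdkn2d and by Cdkn1c at 0.48. With the replicate block 908 genes were called, and Cdkn2d was called only when each library also counted as its own sample (adjusted p = 0.00326) or counted so without the block (adjusted p = 0.0266), fits that take replicates 2 and 3 as separate samples. Chondrocyte markers were the identity check for the sort. They summed to between 18451 and 43779 CPM in gpSSPCs and between 4815 and 9848 CPM in pSSPCs, with all 9 genes higher in gpSSPCs.

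The genes around the inhibitors gave no calls either. Of the cyclins, CDKs and RB family, 13 of 15 were tested in gpSSPCs and 12 in pSSPCs, and 0 passed in either direction. Their medians were -0.37 and 0.52, with Ccnd1 (cyclin D1, a partner of CDK4 and CDK6) at 0.45 (SE 0.62) and 1.73 (SE 1.07) and Cdk6 at -0.58 (SE 0.74) and 0.60 (SE 0.69). Ccnd3 (cyclin D3) had the smallest p of this list in gpSSPCs, at 0.93 (SE 0.57). Proliferation genes had 10 of 15 negative values in gpSSPCs (median -0.81), with Top2a, the topoisomerase of dividing cells, at -2.33 (SE 1.00, edgeR adjusted p = 1.00), but Pcna, the sliding clamp of DNA replication, at 0.85 (SE 0.57). The summed proliferation level in gpSSPCs was 592, 174 and 189 CPM in control replicates 1, 2 and 3. In CKO it was 425, 180 and 186 CPM, so the gap lay in replicate 1. In pSSPCs 12 of 15 of these genes were positive (median 0.72), with Tyms, which makes thymidylate, at 1.49 (SE 1.39), but Mcm7, a subunit of the replicative helicase, at -1.34 (SE 1.76). The summed level there was 182, 138 and 144 CPM in control and 243, 160 and 160 CPM in CKO. Regulators of the inhibitors had medians of 0.12 and -0.10. The 3 of smallest p in gpSSPCs were Ets1, a transcription factor, at -0.83 (SE 0.55), Mdm4, which restrains p53, at 0.62 (SE 0.48), and Mdm2, the p53 ligase and itself a p53 target, at 0.74 (SE 0.65). In pSSPCs they were Foxo1, a transcription factor that can activate Cdkn1b, at 1.53 (SE 0.77), Cbx7, a Polycomb protein, at -1.85 (SE 1.28), and Trp53, which encodes p53, at 0.75 (SE 0.62). Senescence-associated genes had 11 of 15 positive values in pSSPCs (median 0.24), led by Timp1, an inhibitor of matrix proteases, at 1.37 (SE 0.53), Ccl2, a monocyte chemokine, at 1.36 (SE 0.64), and Gdf15, a stress cytokine, at 1.98 (SE 1.07). In gpSSPCs 8 of 15 were positive (median 0.10). The summed level of this list was 2671, 2361 and 2625 CPM in control pSSPCs and 3441, 3613 and 3980 CPM in CKO. In gpSSPCs it was 2503, 2613 and 2650 CPM in control and 2413, 3485 and 3736 CPM in CKO. Dissociation stress genes, which rise when tissue is digested, summed to between 18747 and 22235 CPM in gpSSPCs. In pSSPCs they summed to 16562, 15932 and 15145 CPM in control and 13409, 14308 and 13459 CPM in CKO. Their part in the Cdkn1a levels was not tested.

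The genes most like each inhibitor across the 8 bulk RNA samples were ranked by Pearson's r of log2 CPM among 8353 genes, as a description. For Cdkn1a they were Grcc10 (0.86), Ccng1 (0.85), a p53 target that encodes cyclin G1, and 4833439L19Rik (0.83). Cdkn1c ran with Aqr, Cdc73 and Cep170 (0.90 to 0.94). For Cdkn1b, Cdkn2c and Cdkn2d the 3 nearest genes had r from 0.96 to 0.996, and these samples share the gap between replicate 1 and the others. The nearest genes were Snord13, Drap1 and Sirt6 for Cdkn1b, Cdkn2aip, Resf1 and Nsun6 for Cdkn2c, and Selenos, Gm9790 and Gm43352 for Cdkn2d.

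ATAC-seq asked whether the chromatin at these genes was open. Over the 7 genes and 10 kb on each side, 26 merged peak regions were found, and 12 of them held a peak in all 12 libraries, against 14.3% of all 176624 regions. Every gene had a region at a start that was open in all 12 libraries, including Cdkn2a, whose RNA was near 0. Library depth ran from 12250713 to 46756821 tags, and replicate 3 was the deepest in each group. Heights are given in ppm, the tags over a peak summit scaled to library depth as CPM scales counts, and were mostly lower in replicate 3.

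At Cdkn2a the starts of p16Ink4a and p19Arf behaved differently. The p19Arf region (chr4:89294281-89295868, over the first exon of that transcript) held a peak in all 12 libraries. The p16Ink4a region (chr4:89281922-89282880, over its first exon) held a peak in 6 of 6 gpSSPC libraries, at 1.97, 2.00 and 1.01 ppm in control and 2.24, 1.52 and 0.58 in CKO. In pSSPCs it held a peak in 1 of 3 control libraries, replicate 3 at 0.53, and in 3 of 3 CKO libraries, at 0.95, 1.52 and 1.5 ppm. A gain of at least 2 libraries in CKO is not rare in pSSPCs, where it marks 14.8% of the regions with a peak in that population. The pSSPC control libraries held 13932350, 12250713 and 26371117 tags and the CKO libraries 17894469, 15115534 and 46756821, and the part of depth in this gain was not tested. Presence in 3 of 3 against 0 of 3 libraries cannot go below an exact p of 0.10, so it was not tested. In gpSSPCs the p16Ink4a region differed by -0.14 (SE 0.15) between genotypes on the log2 scale, after centring each library. The p19Arf region, at 2.80, 2.69 and 1.67 ppm in control pSSPCs and 2.57, 4.50 and 2.37 in CKO, differed by 0.36 (SE 0.23, limma adjusted p = 0.493) in pSSPCs and by 0.14 (SE 0.17) in gpSSPCs.

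**Figure D3:**
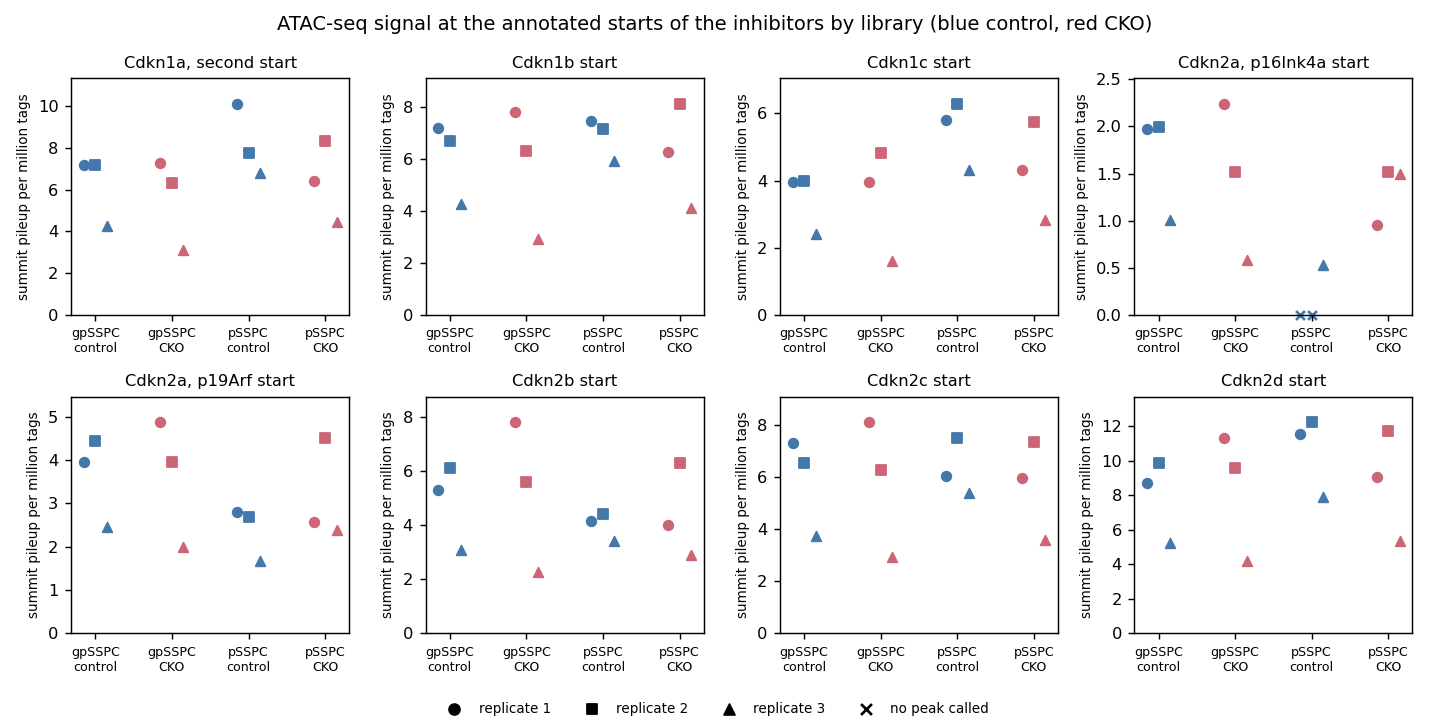
ATAC-seq summit pileup in ppm of library tags (y axis, from 0, its own range for each region) at regions over annotated starts of the inhibitors in the 12 libraries, by population and genotype (x axis), with replicates as marker shapes. Crosses at 0 mark libraries with no called peak, which occur at the p16Ink4a start in 2 control pSSPC libraries and at none of the other 7 regions shown.

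At Cdkn1a the downstream start lay in an open region in every library (chr17:29093403-29095786, with a non-coding gene, AC167363.2, starting there too). Its height was 7.16, 7.16 and 4.25 ppm in control gpSSPCs and 7.26, 6.33 and 3.09 in CKO, and 10.1, 7.75 and 6.79 in control pSSPCs and 6.43, 8.34 and 4.47 in CKO. The difference was -0.01 (SE 0.17) in gpSSPCs and -0.40 (SE 0.20, limma adjusted p = 0.380) in pSSPCs, where the RNA of Cdkn1a lay higher in CKO. The upstream start had no peak in any library. Farther off, a region 10.1 kb upstream held a peak in 3 of 3 CKO pSSPC libraries, at 2.01, 3.31 and 1.43 ppm, and in none of the other 9 libraries. Regions 8.84 kb upstream and at the gene's end held peaks in 6 of 6 gpSSPC libraries, and in 3 and 4 of 6 pSSPC libraries, a pattern that 10.5% of all regions share.

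In pSSPCs, 6 of the 23 member regions with a peak there gained at least 2 CKO libraries (26.1%, beside 14.8% of all regions), and 0 lost as many (1.33% of all regions did). They lie at Cdkn1a (2 regions), Cdkn1c (2), Cdkn2a and Cdkn2c. In gpSSPCs 0 of 22 member regions gained or lost at least 2 libraries, where 1.02% of all regions gained and 9.75% lost them.

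The other starts were open in every library. The Cdkn1c start stood at 3.94, 4.0 and 2.41 ppm in control gpSSPCs and 3.94, 4.82 and 1.61 ppm in CKO, where its RNA was lower, and at 5.81, 6.29 and 4.32 ppm in control pSSPCs and 4.30, 5.76 and 2.82 ppm in CKO. CKO and control overlapped in both populations. The Cdkn2b start stood at 2.26 to 7.80 ppm over 12 libraries and the Cdkn1b start at 2.94 to 8.14 ppm. In no library was the Cdkn2b start the higher, and in CKO gpSSPC replicate 1 both stood at 7.80 ppm. In control pSSPCs the Cdkn2b start stood at 4.16, 4.41 and 3.41 ppm, against 7.46, 7.18 and 5.92 ppm at the Cdkn1b start. The RNA of Cdkn2b per exon length was also far lower than that of Cdkn1b. The Cdkn2c start ran from 2.94 to 8.11 ppm and the Cdkn2d start from 4.20 to 12.2 ppm, with the genotypes overlapping in each population on this scale. After each library was centred, some member regions had genotypes that did not overlap. In gpSSPCs the 3 CKO libraries lay above the 3 controls at 2 of the 17 member regions tested, the Cdkn2b and Cdkn2d starts, as for 8.59% of all regions, and below them at 0 (3.22% of all). In pSSPCs they lay below at 2 of 12, the downstream Cdkn1a start and a region 8.23 kb past the Cdkn1b start, at the start of the non-coding gene Lockd, as for 11.1% of all regions. They lay above at 1 of 12, a region near Cdkn2c described next, as for 8.22% of all regions.

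Pileup could be tested where every library of a population had a peak, at 17 member regions in gpSSPCs and 12 in pSSPCs, and none was called by limma. Over all regions, 0 of 46317 were called in gpSSPCs (0.0%, with 2070 regions, or 4.47%, at an unadjusted p under 0.05) and 599 of 43328 in pSSPCs (1.38%, with 14.5% at an unadjusted p under 0.05), against 1 called region without CKO replicate 3. Member differences ran from -0.14 to 0.21 in gpSSPCs and from -0.40 to 0.58 in pSSPCs. The highest belonged to a region 9.67 kb past the Cdkn2c start (chr4:109656908-109658138), at the start of the non-coding gene 9630013D21Rik, which stood at 1.00, 1.31 and 1.29 ppm in control pSSPCs and 1.62, 2.51 and 1.41 in CKO. It differed by 0.58 (SE 0.21, limma adjusted p = 0.194) in pSSPCs, or by -0.27 when fold enrichment took the place of pileup, and in gpSSPCs, where it stood at 1.91 to 6.18 ppm, by -0.03 (SE 0.14). The Cdkn2d start differed by 0.20 (SE 0.15) in gpSSPCs and -0.34 (SE 0.23) in pSSPCs.

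Single-cell libraries placed the inhibitors by class. Cells with at least 200 genes numbered 782 (Osx-Cre, 8 weeks), 993 (Prx1-Cre, 8 weeks), 2068 (control, 16 weeks) and 2362 (CKO, 16 weeks), with median UMI counts of 925.5, 1043, 1427.5 and 1274, and libraries shared 0 to 10 cell barcodes. Clusters were named from markers as chondrocyte-like, periosteal mesenchymal stromal cell-like (PMSC), osteoblast-like (OB), bone marrow stromal cell-like (BMSC), pericyte-like, endothelial-like and erythroid-like, rebuilt here rather than taken from the study. Ccl2, Iigp1 and Isg15, inflammatory and interferon genes, led the larger BMSC-like cluster at 16 weeks by fold, and Cxcl10 and Cxcl9 led a small one at 8 weeks. With 1 library a condition no test between conditions is possible, and intervals cover counting error only. Zmpste24 fell to 0.162 of its control level at 16 weeks, from 70 to 11 UMIs (ratio interval 0.077 to 0.308). Its level was 19.4 CPM in the 16-week control, 3.14 CPM in the CKO, and 17.4 and 43.3 CPM in the Prx1-Cre and Osx-Cre libraries of 8 weeks, so the latter were not as low as the CKO.

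**Figure D4:**
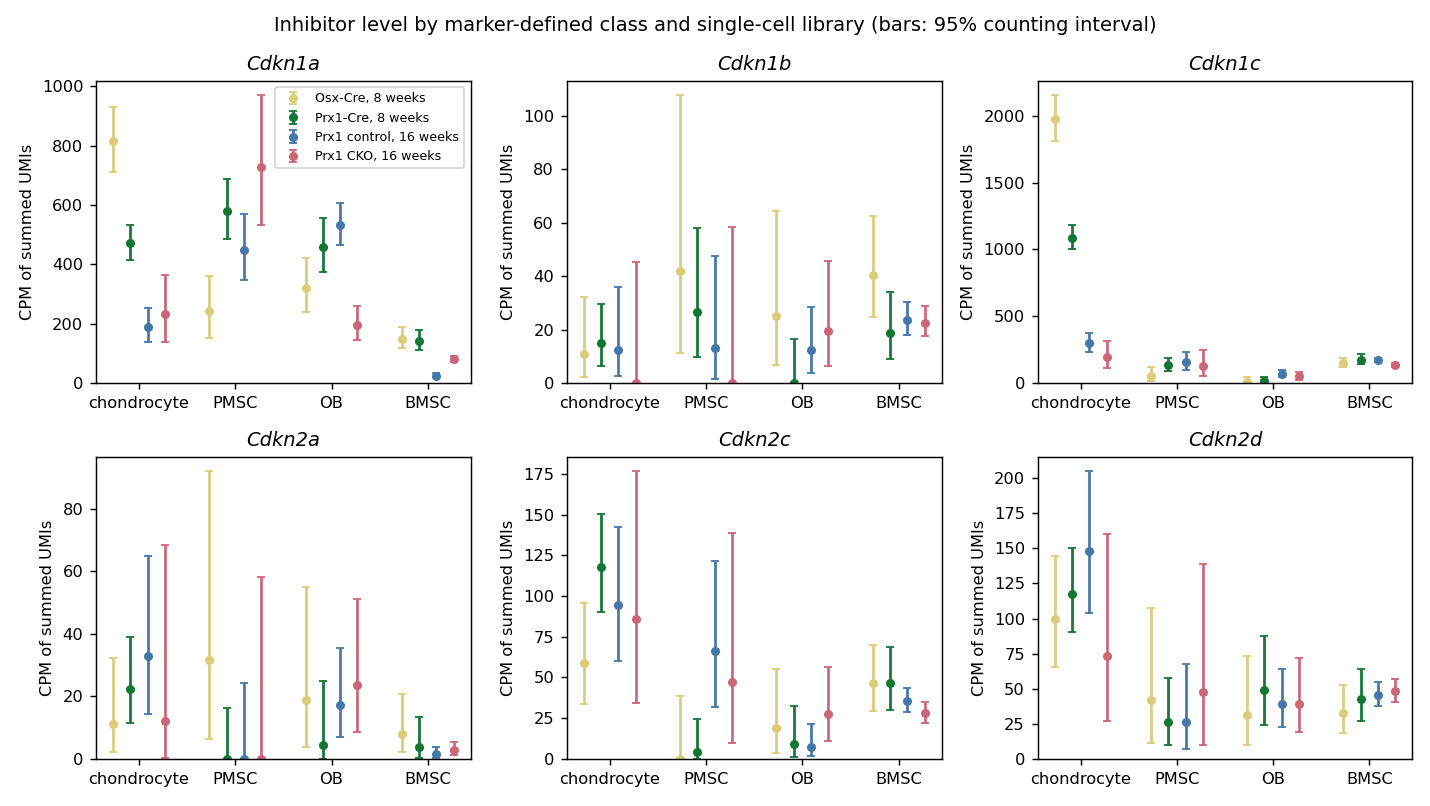
Level of 6 of the inhibitors in counts ppm of summed UMIs (y axis, linear) in the 4 main classes (x axis) of the 4 single-cell libraries (colours), with bars for the exact 95% Poisson interval, which covers counting error only. Cdkn1c stands highest in 8-week chondrocyte-like cells, and Cdkn1a is lowest in BMSC-like cells in each library.

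Cdkn1c was a gene of chondrocyte-like cells at 8 weeks. It stood at 1089 CPM (1002 to 1181) in Prx1-Cre and 1977 CPM (1813 to 2151) in Osx-Cre chondrocyte-like cells, where it had 583 of 716 and 536 of 618 of all its UMIs. In the other 3 main classes it stood between 12.6 and 177 CPM. At 16 weeks the 60 chondrocyte-like cells of the control gave 301 CPM (236 to 378), and the 18 of the CKO gave 196 CPM (112 to 318). The ages differ in library and clustering and are not compared. In BMSC-like cells Cdkn1c stood at 177 and 152 CPM in Prx1-Cre and Osx-Cre at 8 weeks, and at 172 and 137 CPM in control and CKO at 16 weeks.

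Cdkn1a was shared by chondrocyte-like, PMSC-like and OB-like cells and was lower in BMSC-like cells. At 8 weeks it stood at 471 and 815 CPM in chondrocyte-like cells of Prx1-Cre and Osx-Cre, at 580 and 242 CPM in PMSC-like cells, at 459 and 320 CPM in OB-like cells, and at 143 and 150 CPM in BMSC-like cells. The PMSC-like cells of these libraries were unlike in their markers. From Prx1-Cre to Osx-Cre, PMSC markers summed to 34345 and 7350 CPM there, OB markers to 9841 and 16643 CPM, and BMSC markers to 1613 and 5649 CPM, and their part in the Cdkn1a levels was not tested. In Osx-Cre the OB markers stood above the PMSC markers, so the name is weak for those cells. The PMSC-like value of Osx-Cre also hung on the clustering, since merging, a resolution of 0.5 or all variable features each left it at 0. The PMSC-like cluster then held 127, 136 and 135 cells of both libraries together, against 241. A part of the Cdkn1a UMIs came from few cells. In Osx-Cre chondrocyte-like cells 45.7% of the Cdkn1a UMIs came from 5 of 74 cells.

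At 16 weeks the genotype ratio of Cdkn1a differed in direction by class. In BMSC-like cells control cells gave 25.9 CPM (20.1 to 32.7) against 80.4 CPM (70.5 to 91.3) from CKO cells, a ratio of 3.11 (2.37 to 4.12). It rested on the larger BMSC-like cluster, at 27.4 and 98.2 CPM, a ratio of 3.59 (2.67 to 4.89). In the smaller cluster the levels were 20.1 and 37.1 CPM from 11 and 32 UMIs, a ratio of 1.85 (0.907 to 4.06) whose interval includes 1. In OB-like cells it stood at 532 CPM in control and 196 CPM in CKO, a ratio of 0.369 (0.266 to 0.504). In the control OB-like cells 1 cell held 60 of 217 UMIs and 5 cells held 60.4%, and without the UMIs of the top cell in each library the levels were 385 and 149 CPM. Summed OB markers (7 of 7 detected, Bglap the most abundant) also went from 90942 to 58793 CPM in this class, and BMSC markers (7 of 7, led by Cxcl12) from 4050 to 5812 CPM. The part of these markers in the ratio was not tested. In PMSC-like cells, 61 in control and 32 in CKO, it stood at 449 and 727 CPM, a ratio of 1.62 (1.09 to 2.39). In CKO 5 of the 32 cells held 63.0% of its 46 UMIs and in control 5 of the 61 cells held 44.1% of 68 UMIs, while 43.8% and 39.3% of cells had a UMI. Here PMSC markers (9 of 9 detected, led by Dcn) went from 40722 to 23638 CPM, OB markers (4 of 7) from 2480 to 8665 CPM, and BMSC markers (led by Cxcl12) from 1352 to 3305 CPM, and their part was not tested. Merged libraries, all variable features, or a minimum of 500 genes a cell left no PMSC-like value at 16 weeks. In those settings the chondrocyte-like cluster held 175, 172 and 151 cells, against 78, and 4 PMSC markers were each found in at least 25% of them. In chondrocyte-like cells the ratio was 1.23 (0.680 to 2.14), with 84.2% of the 19 CKO UMIs in 5 of 18 cells, and marker levels are given with Cdkn1c. Over all cells the ratio was 0.930 (0.805 to 1.07). Past 1.5-fold upward stood 4.41% of genes in BMSC-like cells and 14.0% in PMSC-like cells, and past it downward 11.3% in OB-like cells.

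The level of free RNA and of dissociation stress bears on these values. Erythroid-like cells should lack stromal RNA other than free RNA, but they were mixed. Their BMSC markers, led by Cxcl12, summed to 12539 CPM in control and 21759 CPM in CKO, and their erythroid markers, led by globin genes, to 196250 and 19352 CPM, so in CKO the BMSC markers were the higher. In these cells 6.90% of 58 control cells (1.91 to 16.7, exact binomial) and 4.35% of 46 CKO cells (0.53 to 14.8) had a Cdkn1a UMI, at median depths of 1120 and 1706 UMIs. In BMSC-like cells the shares were 3.02% of 1686 in control and 7.77% of 2058 in CKO, at 1395 and 1252 UMIs. With so mixed a class the level of free RNA could not be read, and its part in the BMSC-like shares was not tested. From control to CKO, dissociation stress genes went from 2369 to 6384 CPM in BMSC-like cells and from 2786 to 2274 CPM in OB-like cells, the direction of Cdkn1a in both. They went from 7765 to 7890 CPM in PMSC-like cells and from 24346 to 20622 CPM in chondrocyte-like cells. Their part in the ratios was not tested.

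**Figure D5:**
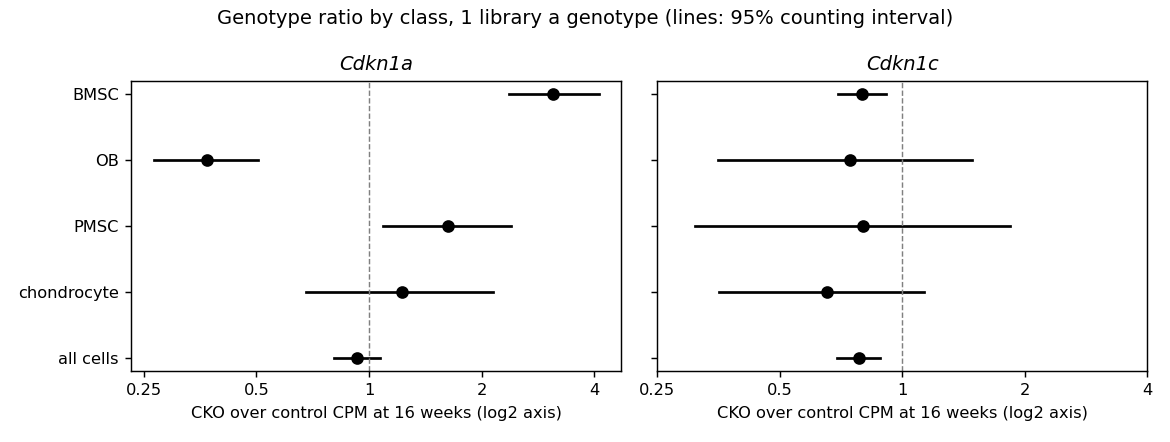
Ratio of CKO to control CPM at 16 weeks (x axis, log2 scale) for Cdkn1a (left) and Cdkn1c (right) over all cells and in the 4 main classes (y axis), with lines for the 95% counting interval from 1 library a genotype. Cdkn1a lies above 1 in BMSC-like and PMSC-like cells and below 1 in OB-like cells, and Cdkn1c lies below 1 in all 5 rows, although its OB-like ratio turned to 1.51 when cells were thinned to 1000 UMIs.

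Cdkn1c had a ratio of 0.781 (0.690 to 0.884) over all cells at 16 weeks, from 599 to 454 UMIs, and of 0.795 (0.694 to 0.911) in BMSC-like cells. A Cdkn1c UMI was found in 20.9% of control and 15.6% of CKO BMSC-like cells, and in 17.2% (8.59 to 29.4) and 17.4% (7.82 to 31.4) of the mixed erythroid-like cells, and the part of free RNA was not tested here either. The ratios were 0.652 (0.354 to 1.13) in chondrocyte-like, 0.799 (0.310 to 1.84) in PMSC-like and 0.743 (0.353 to 1.48) in OB-like cells, with intervals that include 1. When each cell was thinned to 1000 UMIs, the OB-like ratio turned to 1.51. The chondrocyte-like ratio alone was past 1.5-fold, as for 15.2% of genes there, and it rests on 16 CKO UMIs. In this class chondrocyte markers (9 of 9 detected, led by Col2a1) went from 50884 to 46917 CPM, BMSC markers (7 of 7) from 725 to 2414 CPM and OB markers from 8622 to 12167 CPM between control and CKO, and their part was not tested.

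The remaining inhibitors were sparse in single cells. Cdkn1b had 26 to 78 UMIs a library, Cdkn2c 43 to 138 and Cdkn2d 54 to 195, with ratios over all cells at 16 weeks of 1.07 (0.770 to 1.49), 0.814 (0.627 to 1.05) and 0.914 (0.741 to 1.13). In BMSC-like cells the ratios were 0.958 (0.669 to 1.37), 0.787 (0.579 to 1.07) and 1.06 (0.824 to 1.36). In chondrocyte-like cells, 60 in control and 18 in CKO, Cdkn2c gave 0.905 (0.328 to 2.18) and Cdkn2d 0.496 (0.171 to 1.19). The part of class numbers in the ratios over all cells was not tested. Cdkn2c and Cdkn2d were highest in chondrocyte-like cells among the 4 main classes of each library. In the Prx1-Cre, Osx-Cre, control and CKO libraries Cdkn2c stood there at 118, 59.0, 94.7 and 85.8 CPM and Cdkn2d at 118, 99.6, 148 and 73.5 CPM, though in CKO these rest on 7 and 6 UMIs. Cdkn2a is too low to judge in every class, with 0 to 12 UMIs, and over all cells it had 19 UMIs in control and 17 in CKO at 16 weeks, a ratio of 0.922 (0.450 to 1.87). Cdkn2b had 0 to 8 UMIs in a class and 12 and 7 over all cells at 16 weeks, and it too is too low to judge.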

How the data were processed

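Bulk RNA-seq, ATAC-seq and single-cell RNA-seq files were used as deposited, with mm10 (GRCm38) as the build per the labels. For bulk RNA the authors counted unique molecules per gene with STAR and HTSeq, and the deposited values are raw counts. For ATAC-seq the authors called peaks in each library on its own with MACS 2.2.7.1 at a q of 0.05 without a control library, and the deposited columns are the summit pileup (a signal, in tags), a fold enrichment ratio over the local background, and -log10 q. Cell Ranger UMI counts were deposited for single cells. The methods name DESeq2, HOMER and bedtools too.

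RNA counts were tested with edgeR 4.0.16 (quasi-likelihood, TMM, filterByExpr) in R 4.3.3 over all genes, with Benjamini-Hochberg adjustment and a threshold of 0.05, and DESeq2 1.42.0 as an alternative. Library totals ran from 1333260 to 5315709 counts. The labels give each bulk library a replicate number. Deviations from the group means correlated between same-numbered RNA samples by 0.53 to 0.61 in every pair. Samples of different numbers were not compared in this way, and every group shares the gap between replicate 1 and the others. These correlations therefore cannot show that the numbers pair the RNA samples, and the replicate block takes such pairing as given. For ATAC-seq the correlations were 0.19 to 0.42 in gpSSPCs and 0.092 to 0.41 in pSSPCs. ATAC regions were merged over 12 libraries, and log2 pileup in ppm of library tags, centred on each library's median, was tested with limma 3.58.1 where all 6 libraries of a population had a peak. Cells with at least 200 genes were integrated with Seurat 5.3.0 and clustered with 22 components and resolution 0.15 at 16 weeks, and 20 and 0.14 at 8 weeks. The 7 inhibitors were kept out of the variable features. No doublet caller was run. UMIs were summed per class, with exact Poisson or binomial intervals of 95%. A ratio was judged where the libraries together had at least 20 UMIs. Gene models were GENCODE vM21.

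The named genes were all 7 inhibitors, Zmpste24, up to 3 genes of smallest p from each context list per genotype comparison, and the 3 genes most correlated with each inhibitor of at least 10 CPM. The members, lists and tests were chosen with earlier results of these data known. Scripts were tested on simulated data. Cdkn1c had no promoter window in the sequence table used here.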

Additional observations from a re-analysis of the deposited data

Results flagged for a closer look

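Cdkn1a differed in direction between classes of the 16-week single-cell libraries. Its CKO to control ratio was 3.11 in BMSC-like cells and 1.62 in PMSC-like cells, but 0.369 in OB-like cells. In BMSC-like cells 3.02% of control and 7.77% of CKO cells had a Cdkn1a UMI, and the part of free RNA was not tested, because the erythroid-like cells it could be read from held BMSC markers at 12539 CPM in control and 21759 CPM in CKO. In the smaller BMSC-like cluster the ratio was 1.85 (0.907 to 4.06), and in PMSC-like cells of CKO 5 of 32 cells held 63.0% of the UMIs. Dissociation stress genes in CKO stood at 2.69, 1.02 and 0.816 of control in BMSC-like, PMSC-like and OB-like cells. OB markers went from 90942 to 58793 CPM in OB-like cells, where 1 control cell held 60 of 217 Cdkn1a UMIs. PMSC markers went from 40722 to 23638 CPM in PMSC-like cells. That class gave no value with merged libraries, all variable features or 500 genes a cell. The part of stress and of these markers was not tested. Each ratio rests on 1 library a genotype, so the difference between classes was not tested.

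In 2 ATAC regions every gpSSPC replicate pair moved one way and every pSSPC pair the other, as did 12% of the 25200 regions with a peak in all 12 libraries in the same directions. The region at the Faf1 start, 9.58 kb upstream of Cdkn2c, differed by 0.14 in gpSSPCs and by -0.23 in pSSPCs on the log2 scale of pileup. The region at the Cdkn2d start differed by 0.20 in gpSSPCs and by -0.34 in pSSPCs. After quantile normalization the signs of both regions turned in both populations, to -0.026 and 0.023 at the Faf1 start and to -0.017 and 0.0039 at the Cdkn2d start. These pairs follow the replicate numbers, and same-numbered pSSPC ATAC libraries correlated by 0.092 to 0.41, so pairing there is not established. Neither population's difference was called, and the difference between populations was not tested.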

How the results depend on the processing

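The counts of called genes and regions moved with the fit. The replicate block raised RNA calls from 0 to 12 in gpSSPCs, from 0 to 38 in pSSPCs, from 49 to 908 between populations and from 0 to 2 for the interaction. With the block and each library as its own sample the calls were 5 in pSSPCs, 2937 between populations and 13 for the interaction, and with each library as its own sample alone 1135 between populations. DESeq2 called 1 gene in gpSSPCs and 503 between populations. Without a filter on low counts, 3, 5, 347 and 2 genes were called in these 4 comparisons, and the study's thresholds passed 57 and 142 genes in gpSSPCs and pSSPCs on edgeR p-values, and 634 and 1045 on DESeq2 p-values with each library as its own sample (chosen after seeing the data). Leaving out 1 library gave 0 to 4 calls in gpSSPCs, 0 to 1 in pSSPCs and 0 to 61 between populations. Where that leaves a group with 1 sample, it is assumed to vary like the others. ATAC calls in pSSPCs fell from 599 to 251 without centring, 245 with the replicate block, 8 on fold enrichment and 0 after quantile normalization (chosen after seeing the data), and ran from 1 to 1754 without 1 library, with 1 left without CKO replicate 3.

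Among the members, Cdkn1a and Cdkn1c kept their direction in both genotype comparisons under every RNA alternative run. Cdkn1a ran from 0.29 to 0.70 in gpSSPCs and from 0.55 to 0.81 in pSSPCs without 1 library, and Cdkn1c from -1.35 to -0.67 and from -0.57 to -0.05. Signs turned without 1 library for Cdkn1b (-1.27 to 0.69 in gpSSPCs, -1.5 to 1.16 in pSSPCs), Cdkn2b (-0.62 to 0.93), Cdkn2c (-0.45 to 0.48 and -0.21 to 0.82), Cdkn2d in pSSPCs (-0.17 to 0.31), and the Cdkn1a interaction (-0.47 to 0.081). Cdkn2b also turned to 0.27 with each library as its own sample. In ATAC-seq the Cdkn1a start in gpSSPCs ran from -0.13 to 0.058 without 1 library and was 0.31 on fold enrichment. On fold enrichment the p19Arf start was -0.057 in pSSPCs, and the region past Cdkn2c was 0.036 in gpSSPCs and -0.27 in pSSPCs. Without centring, the p19Arf and Faf1 starts were -0.057 and -0.055 in gpSSPCs. After quantile normalization the Faf1 and Cdkn2d starts were -0.026 and -0.017 in gpSSPCs and 0.023 and 0.0039 in pSSPCs, and the Faf1 start ran from -0.00062 to 0.25 in gpSSPCs without 1 library. The cause was not tested.

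In single cells, Cdkn1a in Osx-Cre PMSC-like cells was 0 CPM when libraries were merged, at resolution 0.5 and with all variable features, and Cdkn1c there was 0 when merged. Thinned to 1000 UMIs a cell, Cdkn1a in Prx1-Cre chondrocyte-like cells was 347 CPM, Cdkn1c in chondrocyte-like cells 958 (Prx1-Cre) and 1776 (Osx-Cre), and the Cdkn1c ratio in OB-like cells 1.51. PMSC-like cells gave no 16-week value when merged, with all variable features, or from 500 genes a cell. The chondrocyte-like cluster of those settings was larger and held PMSC markers too, so its values are not of the same cells. Apart from fits without 1 library, 126 alternatives for counts and class values stayed within 1.5-fold of the main count or inside the main interval. In 30 they did not. For single genes and regions 149 kept the direction and side of the threshold, 11 turned direction and 2 became called. The replicate block changed no member from not called to called or back. Cdkn2d was called between populations only where each library counted as its own sample, with the block or without it.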
